A study of Mus musculus with 12 samples.

Results

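Binding of the transcription factors RelA and Ikaros was followed through the response to lipopolysaccharide (LPS), a component of the bacterial outer membrane, at 4 loci of mouse macrophages: Ikzf1, Spi1, Csf1r and Cebpb. The members are hotspots, that is, regions enriched for sequence tags in a chromatin immunoprecipitation (ChIP-seq) library, with at least 1 bp inside 1 of 4 windows on mm9. The windows were chr11:11550000-11700000 for Ikzf1, chr2:90900000-90950000 for Spi1, chr18:61255000-61300000 for Csf1r and chr2:167500000-167620000 for Cebpb with its downstream region. They held 110 of the 50940 hotspots in the 10 lists used, and merging those that overlapped between libraries gave 37 regions. Regions are numbered along the chromosome within each window.

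All cells were bone-marrow-derived macrophages, primary macrophages grown from bone marrow, of C57BL/6J mice. RelA and Ikaros were each precipitated from wild-type cells at 0, 3 and 8 h of LPS, and RelA also from cells labelled Littermate control at the same times. Input DNA came from untreated wild-type cells. The labels do not say whether animals were pooled. Each group is 1 library, so no spread between replicates could be measured and no test between conditions was made. The lists held from 83 hotspots (wild-type RelA, 0 h) to 13843 (Ikaros, 8 h), the depth of each library is unknown, and the names of 6 deposited files carry a time other than the labelled one or beside it, so the order of times rests on the labels. Chromatin was sonicated for 17 min for Ikaros and 20 min for RelA.

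Spi1 encodes PU.1, an ETS-family factor that opens macrophage enhancers. Cebpb encodes C/EBPβ, a basic leucine zipper factor that acts beside PU.1 and is itself induced in inflammation, and Csf1r encodes the receptor for macrophage colony-stimulating factor, on which macrophages depend for survival. Ikzf1 encodes Ikaros, a zinc finger protein known mainly from lymphocyte development, so its own locus was read with an antibody to its own product. RelA is the NF-kB subunit that LPS sends into the nucleus. These lists hold binding and no expression, so the use of the 4 genes in these cells was not measured.

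Other genes lie next to the 4. In RefSeq on GRCm38.p6, the protein-coding genes next to Cebpb are Tmem189 and Ptpn1, those next to Spi1 are Slc39a13 and Mybpc3, those next to Csf1r are Pdgfrb and Hmgxb3, and Fignl1 follows Ikzf1. The files are on mm9, so no region was assigned to a promoter, an intron or a gene, and a region is named after its window alone.

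The Cebpb promoter is shown because its window held the strongest hotspots of the 4. These are the 250 bases before the Cebpb start on the plus strand, from RefSeq on GRCm38.p6, in lower case with each TGACG (either strand), the core of the cAMP response element, in capitals.
Cebpb promoter: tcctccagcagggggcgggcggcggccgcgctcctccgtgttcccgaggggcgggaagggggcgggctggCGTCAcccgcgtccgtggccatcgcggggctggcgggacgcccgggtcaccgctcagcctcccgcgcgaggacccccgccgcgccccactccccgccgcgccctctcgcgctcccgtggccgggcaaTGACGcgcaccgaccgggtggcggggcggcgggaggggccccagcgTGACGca
G and C made up 81.6% of these bases. TGACG occurred 3 times, beginning at positions -180, -53 and -7 from the start, and 17.8% of 32851 mouse promoter windows of this length hold it at least once. The kappaB consensus of NF-kB (in 7.25% of those windows) and the C/EBP motif TTGCNNAA (9.56%) were not among these letters. Nor were TGGGAA (21.6%), searched for Ikaros, and GAGGAA (23.3%), searched for ETS factors. Each was searched on both strands. The shorter strings GGGAA, within TGGGAA, and GGAA, within GAGGAA, did occur in these bases. The lack of the longer strings thus does not show that Ikaros or ETS sites are absent. Whether a hotspot covers this window cannot be told here, since the builds differ.

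Before LPS, Ikaros was already listed at Ikzf1, Csf1r and Cebpb and not at Spi1, while RelA was listed at Cebpb alone. After LPS, both factors were listed at all 4 loci. The Ikaros lists of 0, 3 and 8 h had 8, 23 and 33 member hotspots. These were 0.885%, 0.321% and 0.238% of 904, 7161 and 13843, so the member share fell as the lists grew. Wild-type RelA had 1, 21 and 9 (1.20%, 0.419% and 0.476% of 83, 5017 and 1890). Littermate RelA had 1, 9 and 5 (0.0171%, 0.0888% and 0.0946% of 5859, 10130 and 5288), and input had none. No member overlapped an input hotspot. The windows span 365 kb. Per 100 kb they held 2.19, 6.30 and 9.04 Ikaros hotspots at 0, 3 and 8 h. The whole Ikaros lists average 0.0342, 0.271 and 0.524. For wild-type RelA the figures were 0.274 and 0.00314 at 0 h, 5.75 and 0.190 at 3 h, and 2.47 and 0.0716 at 8 h. For littermate RelA they were 0.274 and 0.222 at 0 h, 2.47 and 0.384 at 3 h, and 1.37 and 0.200 at 8 h. The list averages are over the full length of the chromosomes. The windows were chosen with results of these data known, so these figures describe the windows only.

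**Figure D1:**
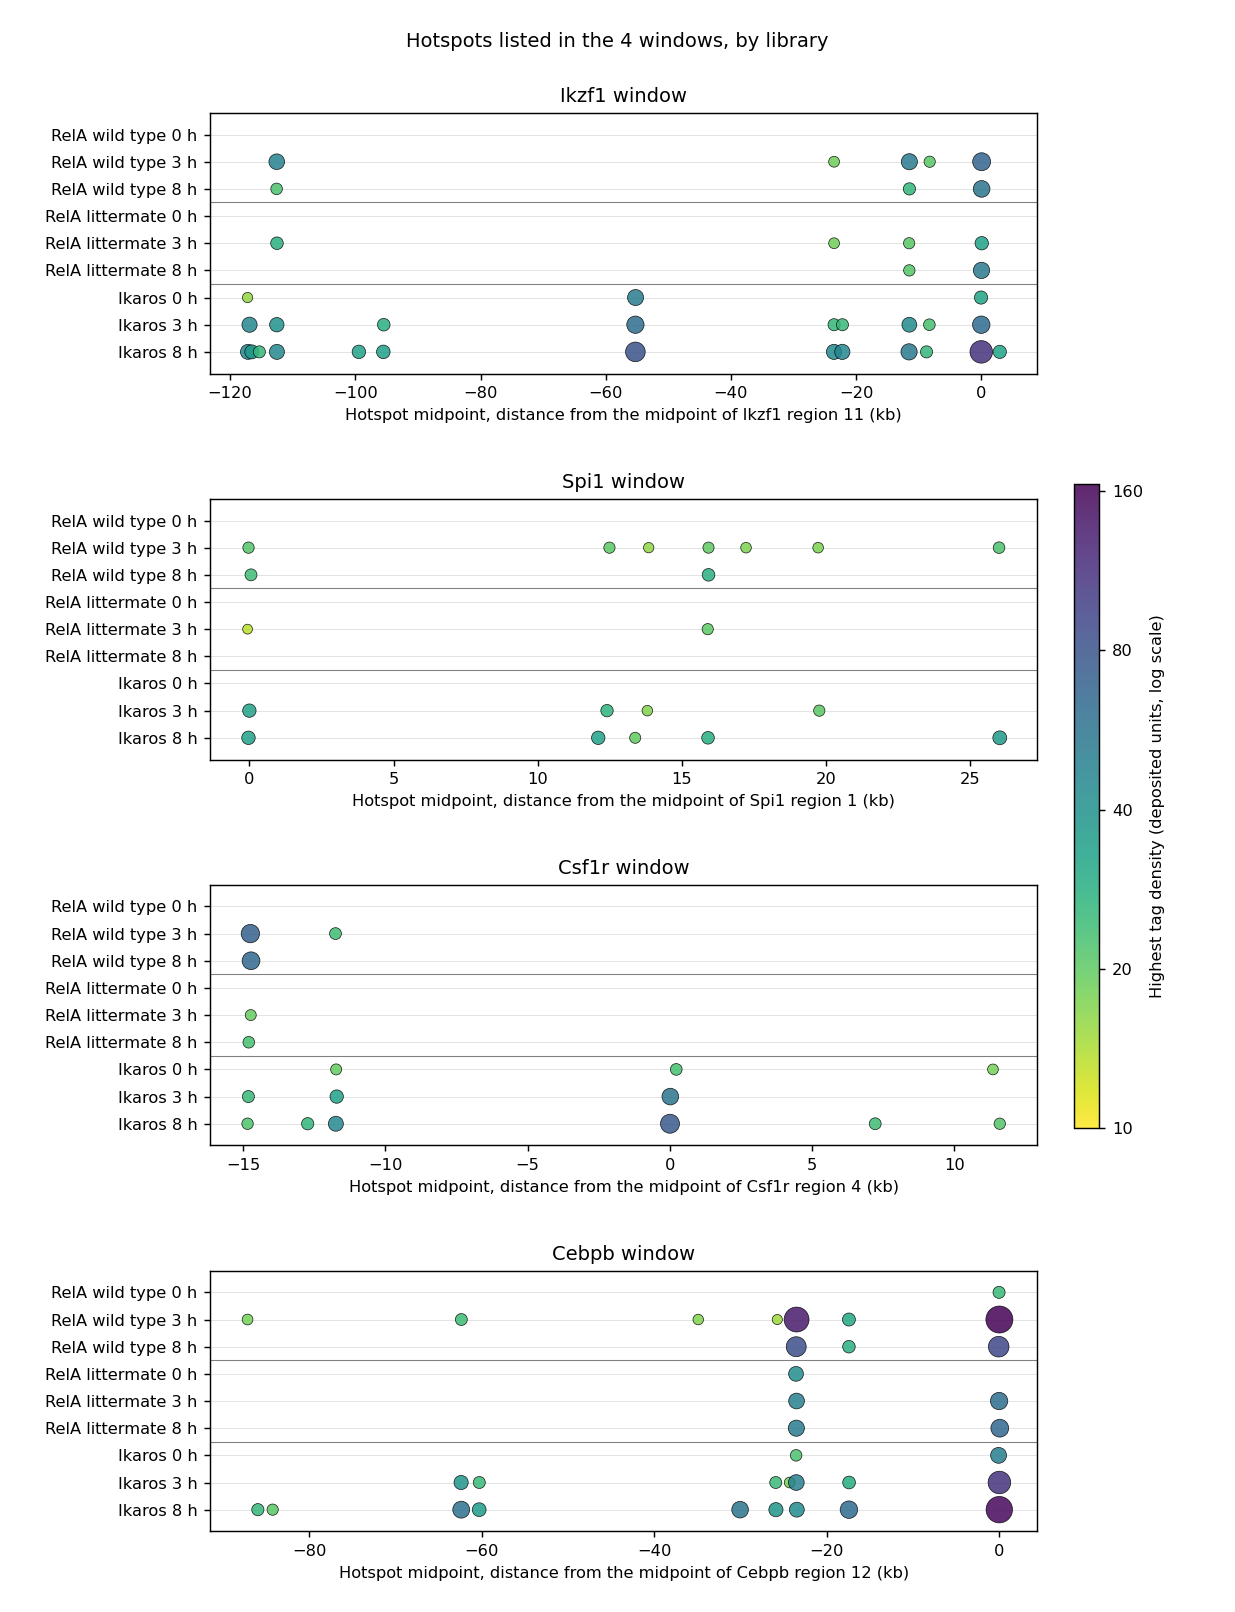
Each point is a hotspot of 1 library (row), placed by the distance in kb of its midpoint from a reference region of its window; colour and point size both show the highest tag density in deposited units. The Cebpb regions at 0 and -23.5 kb hold the densest points. Ikaros at Ikzf1, Csf1r and Cebpb is also listed at places where RelA is not. The rows for RelA at 0 h are empty outside Cebpb.

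Strength is given below as the highest tag density of a hotspot, on the authors' scale, which is not stated, and as the rank of its z score within its own library, where 1 is the strongest. A region that is not listed lay below the authors' threshold, and this does not show that the factor was absent. The lowest z score listed ran from 8.64 to 10.9 between the immunoprecipitated libraries.

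Cebpb held the strongest RelA binding of the 4 loci. The wild-type RelA lists reached 7 of its 12 regions at 3 h, and 3 of these again at 8 h. Region 12, chr2:167602447-167603841, had a RelA density of 25.0 at 0 h, 162 at 3 h and 90.7 at 8 h. Its rank was 20 of 83, 3 of 5017 and 29 of 1890, and without the hotspots that overlap input, 36 of the 83 at 0 h, the first of these was 7. In littermate cells the region was not listed at 0 h and had 61.6 at 3 h and 65.4 at 8 h, ranks 27 of 10130 and 54 of 5288. Both RelA series thus placed it among their first 100 regions after LPS. Ikaros had 50.3, 111 and 155 there at 0, 3 and 8 h, ranks 51 of 904, 52 of 7161 and 45 of 13843, or 17, 18 and 12 without hotspots that overlap input. The Ikaros hotspot was also wider at each later time, at 915, 1236 and 1394 bp, against a median width of 491.5, 533 and 566 bp in the whole lists.

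Region 10 of Cebpb, chr2:167579181-167580092, lies 23.5 kb before region 12. Wild-type RelA was not listed there at 0 h and had a density of 137 at 3 h (rank 8 of 5017) and 84.5 at 8 h (39 of 1890). Littermate RelA had 42.4 at 0 h (109 of 5859), 49.1 at 3 h (93 of 10130) and 52.1 at 8 h (42 of 5288). Before LPS the RelA lists thus differed: wild-type cells had region 12 alone and littermate cells region 10 alone, so 0 of 1 member was shared in either direction (background 45.8% of the wild-type and 0.632% of the littermate list). The 0 h Ikaros list held both regions, so each RelA member overlapped it (1 of 1 in either series, background 39.8% in wild type and 0.751% in littermate cells). Only 5.34% of the littermate 0 h list had a density of 10 or more, so its backgrounds rest mainly on weaker hotspots. Ikaros at region 10 had 22.4, 49.1 and 43.2, ranks 617 of 904, 1046 of 7161 and 2417 of 13843, below RelA in rank at each time that RelA was listed.

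Between these regions, region 11, chr2:167585343-167586071, carried wild-type RelA at 30.6 and 28.0 at 3 and 8 h and Ikaros at 29.0 and 62.8, with no littermate RelA. Its Ikaros ratio of 2.17 between 8 and 3 h was the highest of all members in both lists. Region 7, chr2:167572760-167573413, was listed in 1 library alone, Ikaros at 8 h, with a density of 56.1. The other 8 regions of the window had densities between 15.1 and 58.1. Regions 1 and 6 were listed for wild-type RelA at 3 h alone, and region 6, with a z score of 8.89, ranked 5014 of 5017 there.

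At its own gene, Ikaros was listed at 3 places before LPS, and each of the 12 Ikzf1 regions carried Ikaros at 1 or more times. Its hotspots there numbered 3, 9 and 13 at 0, 3 and 8 h, with 2 of the last inside region 1. RelA was at 5 of the 12 regions in wild-type cells at 3 h and at 3 at 8 h. In littermate cells it was at 4 and 2 of them, all among those of wild type, and in neither series was it listed at 0 h.

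Region 11 of Ikzf1, chr11:11685223-11686198, carried both factors. Its Ikaros densities at 0, 3 and 8 h were 31.8, 62.5 and 110.4, which ranked 284 of 904, 258 of 7161 and 86 of 13843 (52 at 8 h without hotspots that overlap input). These lists differ in length, so the ranks show its place in each list and no change in binding. RelA in wild-type cells had 66.6 at 3 h (143 of 5017) and 56.4 at 8 h (174 of 1890). Littermate RelA had 33.1 and 53.3, ranks 1768 of 10130 and 125 of 5288. By density in place of z score the littermate hotspots ranked 286 and 79.

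Region 6, chr11:11629899-11631011, was an Ikaros region with no RelA in any list. Its density was 51.4, 61.2 and 81.6 at 0, 3 and 8 h, ranks 63 of 904 (29 without hotspots that overlap input), 441 of 7161 and 220 of 13843. Before LPS it was the densest Ikaros hotspot of the 4 windows, just above Cebpb region 12, which ranked higher by z score. Region 1, chr11:11568172-11569462, also held Ikaros at all 3 times without RelA, at 15.7, 45.2 and 43.9.

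RelA at Ikzf1 was further listed in both series at regions 3, 7 and 9 at 3 h. Region 3, chr11:11572764-11573602, lies 113 kb before region 11 and had wild-type RelA at 48.5 and 22.4 at 3 and 8 h, littermate RelA at 28.1 at 3 h alone, and Ikaros at 39.6 and 44.1. Region 9, chr11:11673764-11674632, had 52.1 and 26.3 in wild type, 20.8 and 21.5 in littermate cells, and Ikaros at 42.7 and 53.0. Region 7, chr11:11661867-11662494, had RelA at 3 h alone, with 18.5 in wild type and 18.4 in littermate cells, while Ikaros had 25.4 and 44.6. In deposited units Ikaros was denser at 8 h than at 3 h in all 3 regions. Divided by the median ratio of all hotspots in both Ikaros lists, the Ikaros ratio turned to 0.870 at region 3 and 0.971 at region 9 and was 1.37 at region 7. Wild-type RelA was less dense at 8 h at regions 3 and 9, with or without the same division (0.450 and 0.492 with it), and no longer listed at region 7.

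At Csf1r the densest RelA and the densest Ikaros hotspots lay in different regions, although both regions with RelA (1 and 3) also carried Ikaros. Region 1, chr18:61264959-61265850, carried RelA in both series at 3 and 8 h. Wild-type RelA had 70.4 and 65.2, ranks 72 of 5017 and 95 of 1890. Littermate RelA had 19.4 and 22.7, ranks 4460 of 10130 and 711 of 5288, or 905 and 611 by density. Ikaros there had 25.1 and 21.8, ranks 2525 of 7161 and 7510 of 13843, with list medians of 22.2 and 23.0, and was not listed at 0 h.

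Region 4, chr18:61279553-61280754, 14.7 kb further along, held Ikaros alone. Its densities at 0, 3 and 8 h were 23.2, 56.2 and 75.9, with ranks 640 of 904, 334 of 7161 and 246 of 13843, and RelA was in no list. Region 3, chr18:61267990-61268829, had Ikaros at 19.4, 32.9 and 43.9 and wild-type RelA at 23.9 at 3 h alone. Ikaros was at region 6, chr18:61291188-61291966, at 0 h (18.1) and 8 h (21.3) and missing from the 3 h list. Regions 2 and 5 carried Ikaros at 8 h alone, at 26.2 and 23.8.

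At Spi1 no hotspot was in the first 10% of its list by z score. All 7 of its regions were listed for wild-type RelA at 3 h, with densities from 16.1 to 22.4, near the median of 18.5 of the whole list. Littermate RelA was listed at 3 h at regions 1 and 4 and at no other. Region 1, chr2:90910321-90911304, had wild-type RelA at 21.2 and 24.2 at 3 and 8 h, littermate RelA at 13.6 at 3 h, and Ikaros at 33.1 and 33.6. It was the strongest of the window by z score in every list that reached the window, and its best rank was 946 of 7161, for Ikaros at 3 h. Region 4, chr2:90926379-90927090, had RelA at 20.1 and 28.3 in wild type and 20.6 in littermate cells at 3 h, and Ikaros at 28.3 at 8 h alone. By density the littermate hotspots of regions 1 and 4 ranked 1706 and 806 of 10130. No Spi1 region was listed for either factor at 0 h, nor for littermate RelA at 8 h. Ikaros was at 6 of the 7 regions after LPS, and region 7 had its highest density there, 36.2 at 8 h. Of the 5 Spi1 hotspots of Ikaros at 8 h, 4 were above the list median of 23.0, from 28.3 to 36.2.

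**Figure D2:**
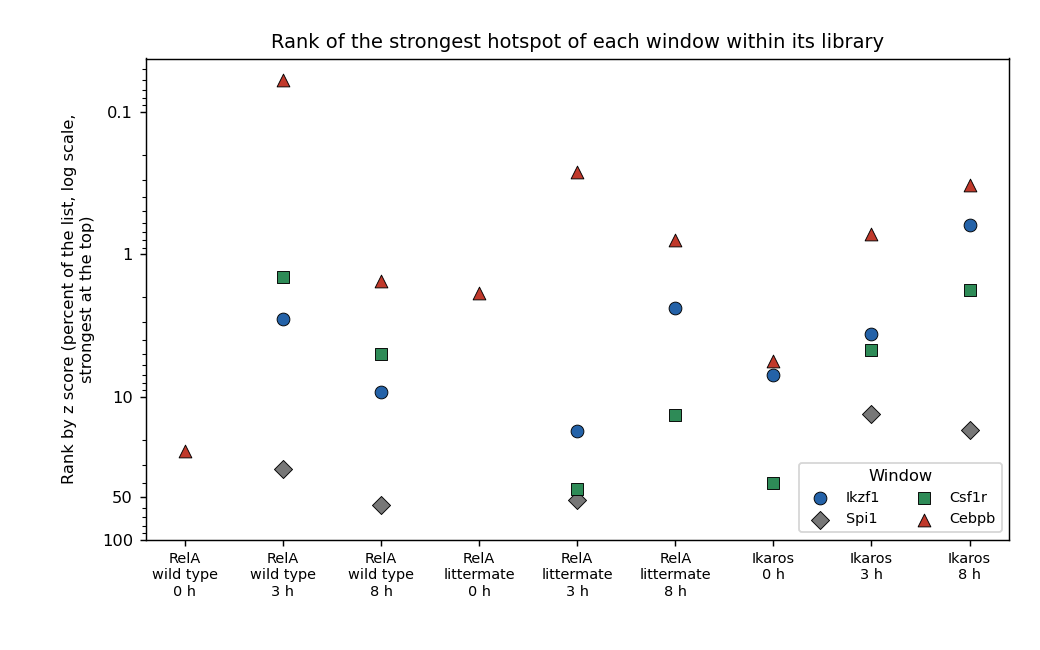
The vertical axis is the z-score rank of the strongest hotspot of each window as a percent of its list (log scale, strongest at the top), for each immunoprecipitated library. Cebpb is highest in all 9 libraries, at 0.0598% for wild-type RelA at 3 h, and Spi1 is lowest wherever it is listed; a missing symbol means that the window had no hotspot in that library.

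Among the first 10% of its list by z score, Ikaros had 2 of 8 member hotspots at 0 h (background 9.96%), 4 of 23 at 3 h (10.0%) and 6 of 33 at 8 h (10.0%). Wild-type RelA had 6 of 21 members in this class at 3 h (9.99%) and 4 of 9 at 8 h (10.0%), and littermate RelA had 2 of 9 (10.0%) and 3 of 5 (9.98%). At 0 h each RelA series had 1 member, in this class in littermate cells and outside it in wild type. The windows were chosen with results of these data known, so these counts describe the members only.

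**Figure D3:**
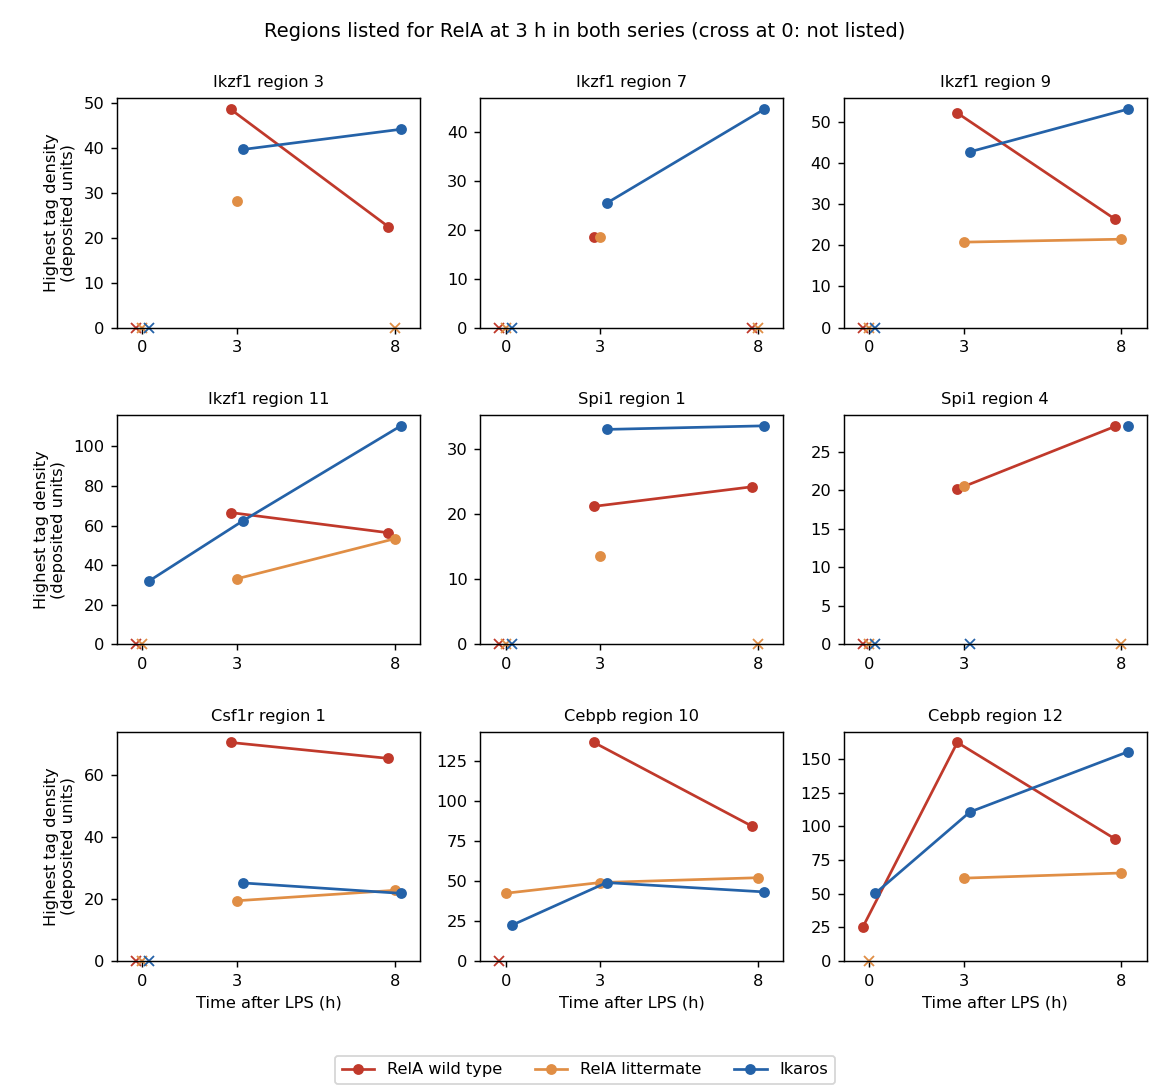
Highest tag density in deposited units against hours of LPS for the 9 regions listed for RelA at 3 h in both series, with the 3 series set slightly apart at each time; crosses on the axis mark libraries in which the region was not listed. Wild-type RelA is lower at 8 h than at 3 h at Cebpb regions 10 and 12, while Ikaros is highest at 8 h at Ikzf1 region 11 and Cebpb region 12.

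In wild-type cells the RelA members listed again at 8 h had mostly higher z scores at 3 h than the others, as had hotspots over the whole list. Of the 21 wild-type hotspots at 3 h, 9 were found at 8 h, 42.9% (21.8 to 66.0), against 31.2% of the whole list. Brackets give exact Clopper-Pearson 95% intervals for counting error, and hotspots of 1 window are not independent of each other. The 9 had z scores from 12.5 to 110.1 and the other 12 from 8.89 to 16.3. Over the whole list the median z score was 20.5 for the 1564 hotspots found at 8 h and 11.5 for the 3453 not found. Of the 12 members not found, 5 lay below 10.9, the lowest z score in the 8 h list, as did 42.5% of all hotspots not found at 8 h. The strongest member not found was Csf1r region 3. In littermate cells 5 of 9 were found at 8 h, 55.6% (21.2 to 86.3), against 14.6% of the list. There the z scores overlapped, from 14.3 to 65.3 for those found and from 10.6 to 24.2 for the 4 not found, the strongest of which was Ikzf1 region 3. The whole littermate list had medians of 19.8 for those found and 13.7 for those not found. Every wild-type member at 8 h (9 of 9, background 83.9%) and every littermate member at 8 h (5 of 5, background 28.2%) had been listed at 3 h, so no RelA member was first listed at 8 h in its series. The single 0 h member of each series was also found later, at 3 h (background 63.9% in wild type, 14.3% in littermate cells) and at 8 h (51.8% and 9.85%). Every littermate member had a density of 10 or more, as had 5.34%, 21.6% and 20.2% of the littermate lists at 0, 3 and 8 h. The littermate backgrounds thus rest mainly on weaker hotspots than the members.

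Most Ikaros members of an earlier list were found again later, and others joined them. Of the 8 hotspots at 0 h, 7 were found at 3 h (background 88.1%) and 8 at 8 h (92.7%). Of the 23 at 3 h, 21 were found at 8 h, 91.3% (72.0 to 98.9), against 82.2% of the list, and the exceptions were Spi1 region 6 and Cebpb region 9. Seen from 8 h, 22 of 33 had been listed at 3 h, 66.7% (48.2 to 82.0), against 42.4%. Over the whole 8 h list the median z score was 19.7 for hotspots found at 3 h and 12.5 for those not found. The median was 18.0 for the 33 members and 14.4 for the list, so 42.4% is not a background of like strength. Of the 34 regions with Ikaros, 7 were listed at all 3 times, 14 at 3 and 8 h, 10 at 8 h alone, 2 at 3 h alone and 1 at 0 and 8 h.

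**Figure D4:**
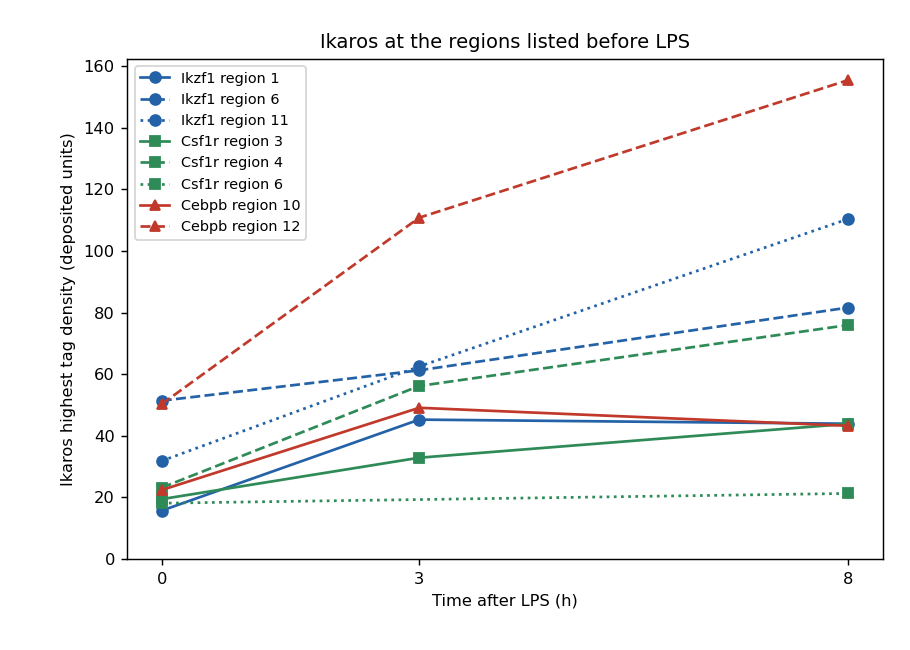
Ikaros highest tag density (deposited units) against hours of LPS for the 8 regions listed at 0 h; each line is a region and Csf1r region 6 has no 3 h point. All 7 regions with a 3 h value are higher at 3 h than at 0 h, and Cebpb region 12 reaches 155 at 8 h.

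Densities of listed hotspots were then set against all hotspots that 2 lists share, because the scale of each library is unknown. A ratio counted as past the fold at 1.5 or more in either direction. For Ikaros from 0 to 3 h all 7 shared members had ratios above 1, from 1.19 (Ikzf1 region 6) to 2.88 (Ikzf1 region 1). Of them 6 were past the fold, against a background of 52.5%, with none past it downwards (1.38%), and the median of the 7, 2.19, stood beside 1.54 over 796 shared hotspots. From 3 to 8 h, 18 of 21 members were above 1 and 6 were past the fold upwards, against 32.1%, with none past it downwards (3.40%). Their median of 1.33 was close to the 1.28 of all 5887 shared hotspots. Divided by these list medians, 2 members stayed past the fold upwards from 0 to 3 h and 1 from 3 to 8 h, Cebpb region 11. After that division 6 of 7 members were above 1 from 0 to 3 h and 11 of 21 from 3 to 8 h. Before division, the 3 members below 1 from 3 to 8 h were Cebpb region 10, Csf1r region 1 and Ikzf1 region 1, at 0.881, 0.867 and 0.971. In the first 10% of the earlier list by z score, median ratios were lower, at 1.31 from 0 to 3 h and 1.10 from 3 to 8 h. The 2 and 4 members there had medians of 1.70 and 1.38, and Ikzf1 region 11 had 1.77 from 3 to 8 h. The list medians of 1.54 and 1.28 are thus not a background of like strength for these members.

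From 0 to 3 h, RelA ratios could be had at 1 region in each series. Cebpb region 12 had 6.50 in wild type, past the fold upwards as were 67.9% of the 53 shared hotspots (5.66% downwards). Cebpb region 10 had 1.16 in littermate cells, within the fold, where 10.1% of 835 shared hotspots were past it upwards and 27.4% downwards.

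For wild-type RelA from 3 to 8 h, 4 of 9 shared members were past the fold downwards, against a background of 12.8%, and none upwards (13.0%). The 4 were Ikzf1 regions 3 and 9, at 0.463 and 0.506, and Cebpb regions 12 and 10, at 0.558 and 0.618. The median was 0.847 for members and 1.03 for all 1564 shared hotspots. All 4 were in the first 10% of the 3 h list by z score, where ratios were lower over the whole list as well. The median there was 0.841 over 433 shared hotspots and 0.588 for the 6 members among them, so 12.8% and 1.03 are not a background of like strength. The Spi1 members ran the other way, at 1.14 and 1.40. In littermate cells the 5 shared members had ratios from 1.03 to 1.61, with 1 past the fold upwards, Ikzf1 region 11 (background 20.0%), and none downwards (7.97%). Divided by the list median of 1.12, 2 of these 5 were above 1 and none was past the fold. In the first 10% of the littermate 3 h list, the median was 0.949 over 336 shared hotspots and 1.06 for its 2 members.

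**Figure D5:**
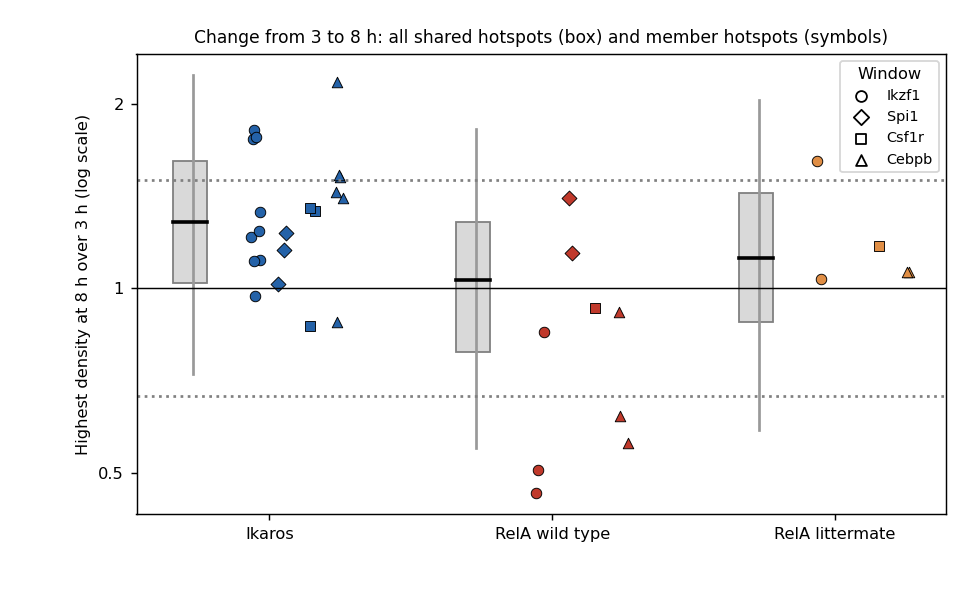
Ratio of highest tag density at 8 h to that at 3 h (log scale) for member hotspots in both lists, by window (symbols), beside all hotspots in both lists (grey box, 25th to 75th percentile; line, 5th to 95th; black bar, median); dotted lines mark the 1.5-fold limits. Ikaros members lie around the median of 1.28, and 4 of the 9 wild-type RelA members lie below the lower limit.

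Where RelA was listed in these windows, Ikaros usually was as well. Of the 21 RelA members of wild-type cells at 3 h, 16 shared their place with Ikaros at 3 h, 76.2% (52.8 to 91.8), against 54.0% of the whole RelA list. The 5 without it were Spi1 regions 4, 5 and 7 and Cebpb regions 1 and 6, all with densities of 22.4 or less. The same 21 set against Ikaros at 0 h gave 4 (5.76%), and against Ikaros at 8 h 17 (66.3%). At 8 h all 9 overlapped Ikaros (background 80.4%). Littermate RelA members overlapped it in 8 of 9 cases at 3 h (12.7%) and in 5 of 5 at 8 h (15.7%). All 15 littermate members had a density of 10 or more, as had 5.34%, 21.6% and 20.2% of the littermate lists at 0, 3 and 8 h, so these list-wide shares rest mainly on weaker hotspots. Seen from Ikaros, 16 of 23 hotspots carried wild-type RelA at 3 h, 69.6% (47.1 to 86.8), against 37.1%, and 9 of 33 did at 8 h, 27.3% (13.3 to 45.5), against 10.9%. The Ikaros members had median densities of 29.0 and 36.2 at 3 and 8 h, and the whole Ikaros lists 22.2 and 23.0. So 37.1% and 10.9% are not a background of like strength.

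After LPS the littermate RelA members were all among those of wild type, unlike the single member at 0 h. At 3 h all 9 were in the wild-type list (background 17.3%), and 9 of 21 wild-type members were in the littermate list (34.6%). At 8 h it was 5 of 5 (15.7%) and 5 of 9 (43.9%). The shares of 17.3% and 15.7% are over littermate lists that hold mainly weaker hotspots than the members, so they are not a background of like strength. By locus the 9 were 4 at Ikzf1, 2 at Spi1, 1 at Csf1r and 2 at Cebpb.

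Overlapping hotspots lay nearly on top of each other. The midpoints of the 16 wild-type RelA members at 3 h were a median of 35.2 bp from the Ikaros midpoint, against 66.5 bp over 2707 shared hotspots. At Cebpb region 12 and Ikzf1 region 7 the distance was 1.00 bp. The widest gap was 182 bp, at Cebpb region 8. At 8 h the median of the 9 members was 59.0 bp, against 61.5 bp. No summit positions were used, so a midpoint stands for the centre of a listed interval.

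No hotspot of an immunoprecipitated library lay within 8 kb of a window edge. The last Ikaros 8 h hotspot inside the Csf1r window ended 8.03 kb before its edge, with a density of 21.3. Outside it, the nearest hotspots were of RelA, 8.70 kb (wild type, 3 h), 8.75 kb (wild type, 8 h) and 8.66 kb (littermate, 3 h) before the start, with densities of 18.7, 15.5 and 19.0. Beyond the end of the Cebpb window the nearest were 10.4 kb away for wild-type RelA at 3 h (18.7) and 10.5 kb away for Ikaros at 8 h (24.0), while the last hotspot inside was region 12.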

How the data were processed

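The authors deposited 1 hotspot list per library, on mm9 with CASAVA named, per the submitters' processing notes. Neither aligner nor caller is given in the sources used here, nor a threshold, input subtraction, or whether starts count from 0 or 1, so mm9 coordinates are printed as deposited. Per the file headers, the authors gave the highest and mean tag density (a signal), a z score and its p-value for each hotspot. The p-value was not used. Of the 12 samples, 10 had a file; the littermate and Ikzf KO inputs were not analysed here.

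All hotspots with 1 bp or more in a window were kept. Hotspots overlapping by 1 bp or more were called shared and merged into regions. Named were regions with RelA in both series at 1 time, with Ikaros at all 3 times, the strongest by z score per window and library, and Cebpb regions in the first 10 of a list; Cebpb regions 7 and 11, Csf1r regions 2, 5 and 6, Spi1 region 7 and the regions named as exceptions were picked after their values were seen. The comparison of midpoints was added later too. Members and lists were chosen with earlier results of these data known. Python 3.11.15, numpy 2.4.6, pandas 2.3.3, scipy 1.17.1 and matplotlib 3.10.9 were used, and overlaps were tested on simulated data against bedtools 2.31.1. Depth is unknown, and intervals cover counting error only.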

Additional observations from a re-analysis of the deposited data

Results flagged for a closer look

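In deposited units, the RelA series differed in direction between 3 and 8 h at all 5 regions listed in both series at both times, with wild-type RelA lower and littermate RelA higher at 8 h. The ratios of highest density at 8 h over 3 h were 0.506 in wild type and 1.03 in littermate cells at Ikzf1 region 9, and 0.847 and 1.61 at Ikzf1 region 11. At Csf1r region 1 they were 0.927 and 1.17. At Cebpb region 10 they were 0.618 and 1.06, and at Cebpb region 12 they were 0.558 and 1.06. Divided by the median ratio of all hotspots that the 3 and 8 h lists of a series share, the littermate ratios turned to 0.924 at Ikzf1 region 9, 0.948 at Cebpb region 10 and 0.949 at Cebpb region 12. The series then differed in direction at Ikzf1 region 11 (0.824 and 1.44) and Csf1r region 1 (0.902 and 1.05), and at the other 3 both were below 1. These medians are not a background of like strength for strong regions. Shared hotspots in the first 10% of the 3 h list by z score had median ratios of 0.841 (wild type) and 0.949 (littermate). Against these, Cebpb regions 10 and 12 were below in wild type and above in littermate cells. Wild-type Ikzf1 region 11 and Csf1r region 1 were then above. Which regions differed in direction thus depended on the background. With a single library behind each value, the difference was not tested. Over the whole lists, 734 wild-type 3 h hotspots were in all 4 lists. Of these, 23.0% were lower in wild type and higher in littermate cells and 18.1% the reverse, with median ratios of 1.03 and 1.07. Genotype label, animals and library preparation cannot be told apart between the series.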

How the results depend on the processing

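For 66 counts and shares, 189 of 195 alternatives left the value within 1.5 times (counts) or within its interval (shares). Many of these could not move a value, so the total says little about robustness. They were 54 that kept densities of 10 or more, 54 that removed input-overlapping hotspots and 9 that required the midpoint inside the window. No member was below 10, overlapped input or lay across a window edge. After division by the median of shared hotspots, the members past the fold upwards numbered 2 for Ikaros from 0 to 3 h, 1 for Ikaros from 3 to 8 h and 0 for littermate RelA from 3 to 8 h. With the mean density, 1 wild-type RelA member was past it upwards from 3 to 8 h (Spi1 region 4). Under a reciprocal overlap of 50%, 62.5% of Ikaros 0 h members and 69.6% of 3 h members were found at 8 h. Of 288 alternatives for single regions, windows and ranks, 258 kept the value in these bounds and 30 moved it. Here too the 36 with a density of 10 or more and the 36 with the midpoint inside the window could move no value. Nor could removing input hotspots move a count. Widening each window by 20 percent on each side moved 3 counts. Littermate RelA at Ikzf1 at 8 h went from 2 to 4 hotspots. At Csf1r, littermate RelA at 3 h and wild-type RelA at 8 h each went from 1 to 2. Removing input hotspots moved the Ikaros rank of Cebpb region 12 to 17, 18 and 12 at 0, 3 and 8 h, its wild-type RelA rank at 0 h to 7, and the best Ikaros rank at Ikzf1 to 29 at 0 h and 52 at 8 h. No paired analysis was possible because replicate numbers are absent from the labels and the values come from no test. Leaving out a library was not possible with 1 per group. Depth is unknown, and so is the weakest binding each library could list.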
